A study of Homo sapiens with 6 samples.

Results

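The 117 genes described here were those whose RNA fell furthest in HDQ-P1 cells given Y-320 (1 μM, 48 h), once members of 16 large gene families had been set aside. HDQ-P1 is an established human breast cancer cell line, and Y-320 is a small molecule studied as an enhancer of readthrough of premature termination codons. The dataset holds 6 RNA-seq libraries of this line, 3 from untreated cells and 3 from cells that received Y-320 and no other agent, and no source says whether the untreated cells received solvent. The genes were chosen by their measured values. Each gene's estimated count was divided by the library total and scaled to counts per 1e6 counts (CPM), and a named protein-coding gene was taken when its mean untreated level was at least 2 CPM and the ratio of (mean Y-320 CPM + 0.5) to (mean untreated CPM + 0.5), given below as its log2, was at least 2.38-fold lower. Of 12391 named protein-coding genes at or above 2 CPM, 134 met both conditions, which is 1.08%. Symbols that began with one of 16 family names such as KRT, COL or ITG accounted for 17 of them and were left out. All 117 remaining genes had a log2 ratio from -3.27 to -1.254, with a median of -1.52. The median over the 16580 genes tested with edgeR was 0.001. That value is edgeR's own log2 fold change, a different measure, and edgeR's scaling of the libraries holds it near 0. As many as 132 genes met the mirrored conditions for a strong increase. Since the treated and untreated levels selected the genes, the size of each fall is a description and carries no test below.

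Many of the 117 genes encode proteins that work at or outside the cell surface, but the share of such genes among all expressed genes was not counted. Matricellular proteins such as CCN2 and THBS1 modulate how cells attach to and sense the extracellular matrix, and CCN2 is a textbook target of the mechanosensitive coactivator YAP and its DNA-binding partner TEAD. Ligands of the BMP and Wnt families instruct cell fate during development, SMAD6 and DKK1 dampen these signals inside and outside the cell, and the ID genes are direct targets of BMP signalling. In cultured epithelial cells RNA levels of such genes are known to vary with cell density, substrate stiffness and growth factor supply.

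Depth was 21045401 to 22740535 counts per library, so that 0 counts of a gene allow up to 3 counts, or 0.132 to 0.143 CPM. This limit covers counting error only. Pairs of libraries of the same group differed by 2.02 to 2.98 times the variance that counting alone gives and pairs from different groups by 40.2 to 42.1 times, so no library was a copy of another. Epithelial markers were present in every library at a summed 7915 to 8196 CPM without treatment and 5200 to 5241 CPM with Y-320, with KRT8 and KRT18 lower and EPCAM and ESRP1 higher in the treated cells. Markers of blood cells summed to at most 2.25 CPM, with HBB at 0 in every library, and the 4 neural markers summed to 2.82 to 3.50 CPM, with NEFL at 0. The 4 endothelial markers summed to 14.3 to 19.3 CPM, nearly all of it CDH5 and PECAM1, with VWF under 1 CPM in every library. CDH5 fell from a mean of 13.5 CPM untreated to 5.55 CPM with Y-320, while PECAM1 rose from 3.96 to 9.3 CPM. The 6 fibroblast markers summed to 109 to 131 CPM without treatment and 49.8 to 63.1 CPM with Y-320. Of these, LUM and PDGFRB belong to the 117 genes. COL1A1, COL3A1, DCN and PDGFRA, 4 of the 6, were each highest in untreated 3 and in Y-320 2 of their groups, while LUM was highest in untreated 1 and Y-320 1 and PDGFRB in untreated 3 and Y-320 1. The part that other cells might have had in these levels was not tested. CPM is a share of the library. In bulk RNA, fewer cells that express a gene, less of its RNA per cell and more RNA of other genes cannot be told apart.

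Summed, the 117 genes made up 3809, 3933 and 4006 CPM in the untreated libraries and 1191, 1169 and 1180 CPM in the Y-320 libraries. The placental alkaline phosphatase gene ALPP held much of this sum, and without it the range was 2987 to 3135 CPM untreated and 949 to 955 CPM with Y-320. In every gene the 3 untreated libraries lay above the 3 treated ones, as the selection nearly ensured. How many other genes separated in this way was not counted, so the separation does not set the 117 apart. All 117 were among the genes that edgeR called lower. Over the 16580 genes tested, 25.4% were called lower and 26.2% higher. Of the 117, 19 were at least 4-fold lower on the log2(CPM + 0.5) scale. Most were genes of modest level, 26 of them under 5 CPM in untreated cells and 18 at 50 CPM or more, and 16 were under 1 CPM with Y-320. The plot of all protein-coding genes by level and log2 ratio shows where these genes lie.

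**Figure D1:**
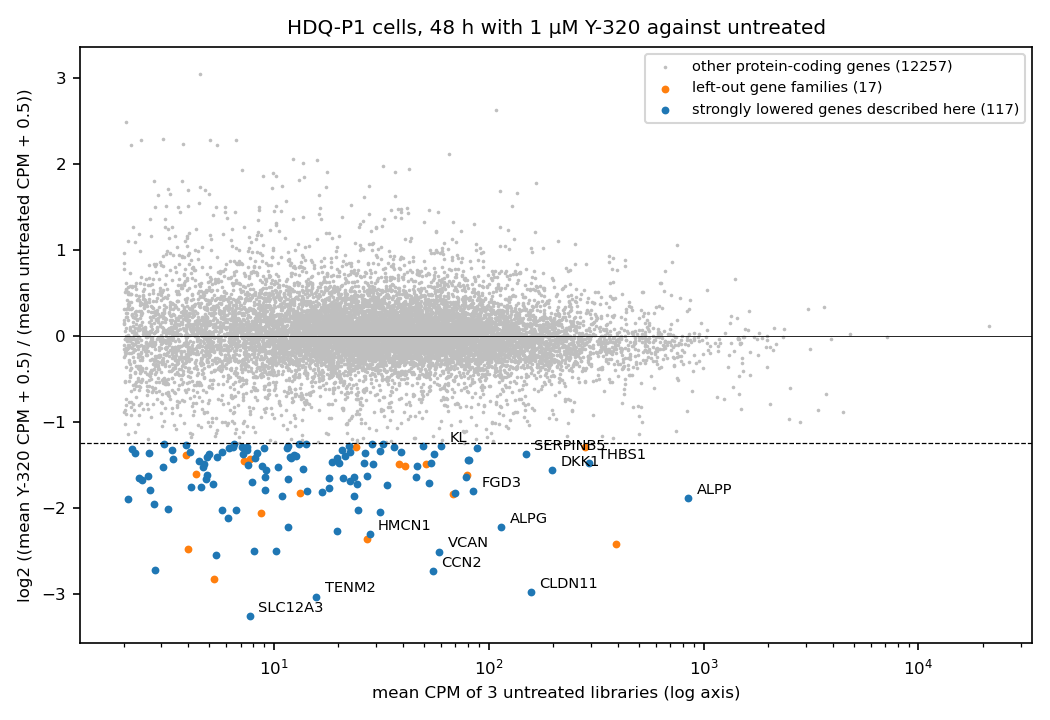
Log2 of (mean Y-320 CPM + 0.5) over (mean untreated CPM + 0.5) against mean untreated CPM on a log axis, 1 point per named protein-coding gene at or above 2 CPM. The 117 genes described here (blue) and the 17 of the left-out families (orange) lie under the dashed line at the selection threshold, and SLC12A3 is the lowest at -3.27.

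The falls were deepest in genes of very different kinds. SLC12A3, the thiazide-sensitive sodium chloride cotransporter known from the kidney, had 7.23, 7.81 and 8.23 CPM in the untreated libraries and 0.220, 0.450 and 0.406 CPM with Y-320, so that 4.63% of its level was left (log2 ratio -3.27). The treated values rest on 5.01, 9.79 and 8.98 counts. Its groups were 3.02 log2 units apart at their nearest libraries, the widest gap of all 117 genes. TENM2, a teneurin that bridges cells through latrophilin receptors, had 15.5, 16.3 and 15.6 CPM untreated and 1.58, 1.10 and 1.76 CPM with Y-320 (log2 ratio -3.03). CLDN11, a tight junction claudin best known from myelin and testis, combined a deep fall with a high level, at 151, 161 and 159 CPM untreated and 18.8, 19.4 and 20.2 CPM with Y-320 (log2 ratio -2.98). Its group means were 157 ± 5.22 and 19.5 ± 0.711 CPM (SD, n = 3 each).

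The matrix and matricellular genes numbered 14 and spanned log2 ratios of -2.74 to -1.29, with a median of -1.61. CCN2, the connective tissue growth factor gene, had 50.9, 55.2 and 58.3 CPM untreated and 7.48, 7.86 and 7.96 CPM with Y-320 (log2 ratio -2.74). VCAN, which encodes the large proteoglycan versican, was nearly as deep at 56.1, 58.6 and 61.9 CPM against 9.72, 10.0 and 9.99 CPM (log2 ratio -2.51). In both genes the treated libraries were closer together than the untreated ones, and no treated library came within 2.4 log2 units of an untreated one. HMCN1, a giant fibulin-family matrix protein, went from a mean of 27.9 ± 1.04 to 5.22 ± 0.401 CPM. FREM2, a basement membrane protein of the Fraser complex, went from 19.7 ± 0.339 to 3.68 ± 0.393 CPM (SD, n = 3). The microfibril-associated FBLN2 had 65.1, 70.6 and 72.8 CPM untreated and 18.0, 20.2 and 19.6 CPM with Y-320. THBS1, thrombospondin 1, an activator of latent TGF-β and a modulator of angiogenesis, was the most abundant of this kind in CPM, at 281, 292 and 309 CPM untreated and 94.1, 109 and 111 CPM with Y-320 (log2 ratio -1.48). The small leucine-rich proteoglycan LUM, at 46.3 ± 2.13 CPM untreated, had 15.9 ± 0.582 CPM with Y-320. The hyaluronan synthase HAS2 and the hyaluronan link protein gene HAPLN4 were lower as well, by log2 ratios of -1.38 and -1.41. Since 97.3% of the 31-base words of HAPLN4 also occur in an overlapping unnamed gene, its value is uncertain. POSTN, CCBE1, AMTN, MATN3 and SRGN, all under 8 CPM in untreated cells, made up the rest.

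Secreted signalling ligands and their direct regulators were the most numerous kind, with 15 genes and a median log2 ratio of -1.52. The Wnt antagonist DKK1 had 195, 196 and 202 CPM in the untreated libraries and 70.4, 64.6 and 65.3 CPM with Y-320 (log2 ratio -1.56). The non-canonical Wnt ligands WNT5A and WNT11 were lower with it, WNT5A at 45.9 ± 1.88 against 14.4 ± 1.32 CPM and WNT11 at 22.4 ± 0.556 against 8.93 ± 0.366 CPM (SD, n = 3). BMP4, a bone morphogenetic protein, had 50.1, 53.4 and 55.0 CPM untreated and 16.3, 14.3 and 16.7 CPM with Y-320, and the BMP-binding protein gene BMPER had a log2 ratio of -1.40. NRG1, the neuregulin that activates ERBB receptors, showed the deepest fall of the ligands, from 8.14, 9.03 and 7.21 CPM to 0.967, 1.29 and 0.814 CPM (log2 ratio -2.50). FGFBP1, which releases fibroblast growth factors from the matrix, had 80.2 ± 4.96 CPM untreated and 29.2 ± 1.84 CPM with Y-320. TGFB2, one of the TGF-β ligands, went from 18.6 ± 0.785 to 6.37 ± 0.549 CPM. The secreted kinase gene PKDCC, the platelet-derived growth factor PDGFD and the heparin-binding PTN had log2 ratios of -1.82, -1.46 and -1.36. The pregnancy-specific glycoproteins PSG1, PSG4 and PSG5, products normally of the placenta, had untreated means of 2.43 to 5.23 CPM and log2 ratios from -1.73 to -1.52. Reads of these paralogs can be shared, because 32.4% to 43.1% of their 31-base words occur in another gene. SLURP2 closed the group, and 87.5% of its words occur in the readthrough gene LYNX1-SLURP2.

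The receptors numbered 8, with a median log2 ratio of -1.58. KL, which encodes the FGF23 coreceptor Klotho, had 61.3, 58.0 and 60.8 CPM untreated and 26.7, 22.6 and 23.9 CPM with Y-320. The fibroblast growth factor receptor FGFR2 had 16.5, 21.9 and 21.9 CPM untreated and 6.82, 6.38 and 7.43 CPM with Y-320. PDGFRB, the PDGF receptor β that binds PDGFD, had 10.4, 11.1 and 13.3 CPM against 4.0, 3.13 and 2.85 CPM. The interleukin 7 receptor IL7R went from 11 ± 0.728 to 2.64 ± 0.471 CPM and the endocytic receptor LRP2 from 4.75 ± 0.324 to 1.37 ± 0.289 CPM (SD, n = 3). GFRA1, the GDNF coreceptor, and EPHA7, an ephrin receptor, had the lowest ratios of the receptors, -2.03 and -1.90. Their treated libraries were uneven, with 0.967, 1.48 and 0.633 CPM in GFRA1 and 0.176, 0.322 and 0.0904 CPM in EPHA7, and the last of these values is under the limit that a count of 0 allows. The serotonin receptor gene HTR7 had a log2 ratio of -1.29.

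Adhesion and junction genes besides TENM2 and CLDN11 were 8 genes with log2 ratios of -1.67 to -1.33. GJA5 and GJA1 encode connexins of gap junctions. GJA5 had 28.7, 26.4 and 26.5 CPM untreated and 9.76, 8.32 and 7.32 CPM with Y-320, and GJA1 had 7.91, 8.74 and 9.65 CPM against 2.59, 2.85 and 2.76 CPM. The tetraspanin TSPAN2 went from 21.5 ± 0.999 to 7.86 ± 0.375 CPM and the giant cadherin FAT2 from 8.19 ± 1.28 to 2.74 ± 0.472 CPM (SD, n = 3). The leucine-rich repeat proteins SLITRK5 and LRRN1, the protocadherin PCDH18 and the claudin CLDN10 were all under 5 CPM in untreated cells.

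Among 10 channel and transporter genes the untreated levels ran from 4.11 to 88.5 CPM. GABRE, a GABA-A receptor subunit, had 86.7, 89.0 and 89.6 CPM untreated and 37.1, 33.3 and 35.9 CPM with Y-320. GABRQ, the subunit encoded 663.2 kb away on the X chromosome, had 4.70, 7.32 and 5.23 CPM against 1.89, 2.12 and 1.85 CPM. The lysosomal nucleoside transporter SLC29A3 went from 55.7 ± 2.82 to 21.2 ± 1.19 CPM and the lipid flippase gene ABCA4 from 23.6 ± 1.43 to 7.22 ± 0.611 CPM (SD, n = 3). The calcium channel gene TRPV6 had a log2 ratio of -1.81 and the cation channel gene TRPC4 one of -1.76. ATP6V1B1, a subunit of the proton pump of acid-secreting cells, had a log2 ratio of -2.22, and 61.0% of its words occur in its overlapping neighbour VAX2. CLIC5 and TMEM37 had log2 ratios of -1.42 and -1.41.

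Alkaline phosphatases led the 14 metabolic enzyme genes. ALPP, the placental isozyme, had 822, 848 and 871 CPM in untreated cells and 236, 220 and 228 CPM with Y-320 (log2 ratio -1.89). It had the highest level of all 117 genes also per kilobase of transcript, at 308 CPM per kb untreated and 82.8 CPM per kb with Y-320, followed by DKK1 at 110 and 37.0 CPM per kb. ALPG, the germ cell isozyme encoded 24.0 kb downstream, had 113, 119 and 111 CPM untreated and 25.4, 23.6 and 22.8 CPM with Y-320 (log2 ratio -2.23). Of the 31-base words of ALPP 32.3% also occur in ALPG, so that reads may have been divided between them. CYP24A1, the enzyme that inactivates vitamin D, had 24.3, 24.7 and 25.0 CPM untreated and 6.33, 5.70 and 4.97 CPM with Y-320. NNMT, which methylates nicotinamide, went from 31.1 ± 0.866 to 12 ± 0.835 CPM and HPDL from 26.3 ± 1.13 to 9.13 ± 0.903 CPM (SD, n = 3). The GABA transaminase gene ABAT had 22.6 ± 1.93 CPM untreated and 8.57 ± 0.406 CPM with Y-320. WSCD2 had the lowest ratio of these genes at -2.50. HPGD, PLPP4, MGAT3, PLAAT4, AKR1B10, GYG2 and FBP1, enzymes of prostaglandin, lipid, glycan, retinal and glucose metabolism, had log2 ratios of -1.76 to -1.27.

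**Figure D2:**
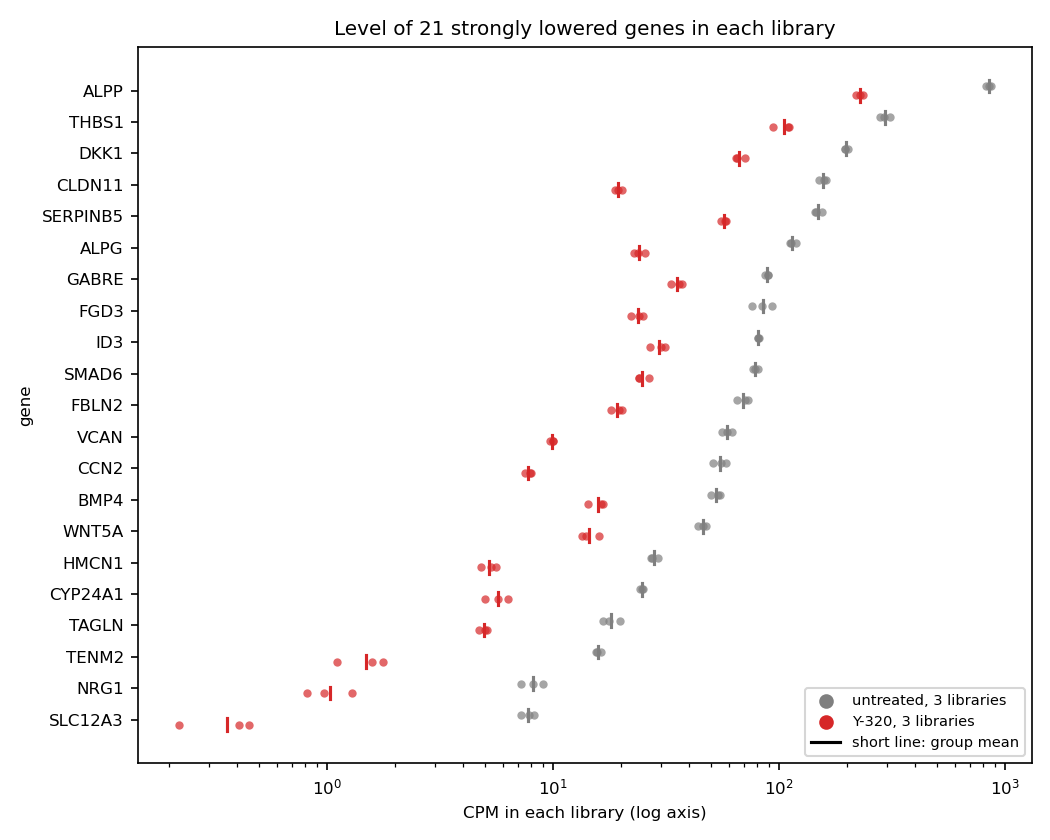
CPM of 21 of the 117 genes in each of the 3 untreated (grey) and 3 Y-320 (red) libraries on a log axis, with short lines at the group means. The gap between the groups is widest for SLC12A3, TENM2 and CLDN11, and ALPP has the highest CPM in both groups.

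Intracellular signalling genes numbered 10. SMAD6, an inhibitor of BMP signalling, had 76.7, 78.4 and 80.6 CPM untreated and 26.6, 23.9 and 24.0 CPM with Y-320 (log2 ratio -1.64). FGD3, an exchange factor for CDC42, had 75.8, 84.2 and 93.5 CPM against 22.2, 24.0 and 25.0 CPM (log2 ratio -1.81). Exchange factors of the DOCK family, DOCK8, DOCK2 and DOCK10, had untreated means of 6.53 to 9.20 CPM and log2 ratios of -1.56, -1.30 and -1.26. MAP2K6, a kinase that activates p38, went from 22.7 ± 1.58 to 6.70 ± 0.838 CPM (SD, n = 3). The G protein regulator RGS4, the small GTPase gene RASL11A and the kinase gene ALPK2 were near 6 CPM in untreated cells and had log2 ratios of -2.12, -2.03 and -2.55. TBC1D3L, a hominoid-specific gene of the TBC1D3 cluster, had 68.1, 84.0 and 29.6 counts untreated and 0 in all 3 Y-320 libraries, so it was at least 20.7-fold lower, set against 3 counts per library. It is uncertain, because 61.4% of its words occur in other genes and kallisto may have assigned its reads to other copies of the cluster.

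The 11 transcription and chromatin genes had a median log2 ratio of -1.35. ID3, a dominant-negative helix-loop-helix protein and a classical target of BMP signalling, had 80.3, 80.3 and 81.4 CPM untreated and 31.3, 30.1 and 26.8 CPM with Y-320. An unnamed identifier had the same values in every library, so each may hold only part of the reads. ID4 had 10.9, 12.1 and 11.8 CPM against 4.44, 4.51 and 4.52 CPM. VGLL3, a cofactor of TEAD proteins, went from 49.2 ± 1.56 to 19.9 ± 0.842 CPM. The adjacent homeobox genes HOXC13 and HOXC12, 8.4 kb apart, went from 38.9 ± 2.77 to 14.9 ± 0.486 CPM and from 4.98 ± 0.528 to 1.61 ± 0.147 CPM (SD, n = 3). SAMD11 and SIM1, which were near 24 CPM in untreated cells, had log2 ratios of -1.86 and -1.72. ZNF488, TRNP1, ATOH8 and TCF4 had log2 ratios of -1.37 to -1.254.

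The remaining kinds were small. Of 5 cytoskeletal genes, KANK4 went from 31.2 ± 2.04 to 7.18 ± 0.208 CPM, and TAGLN, the actin-binding transgelin of smooth muscle, from 16.5, 17.7 and 19.8 CPM to 4.97, 4.67 and 5.11 CPM. TNS4, a focal adhesion tensin, DPYSL3 and the formin gene FMN2 had log2 ratios of -1.26, -1.55 and -1.66. SERPINB5, which encodes the mammary serpin maspin, had 156, 145 and 146 CPM untreated and 57.8, 55.2 and 58.2 CPM with Y-320 (log2 ratio -1.37). PI16 had a log2 ratio of -1.43. The interferon-inducible GTPase GBP1 went from 10.5 ± 1.10 to 3.31 ± 0.153 CPM (SD, n = 3). The imprinted gene MEST had 3.39, 3.18 and 3.07 CPM against 0.484, 0.46 and 0.316 CPM (log2 ratio -2.01). IVL, the cornified envelope protein involucrin, had 6.17 ± 0.704 CPM against 2.19 ± 0.219 CPM. PSCA, WDR86, GLIPR1, CCDC85A, C11orf71, BCAS1, CRYGN, GRAMD2A, STON1 and BICC1 spanned log2 ratios of -1.95 to -1.26.

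A few genes were less even than the others. MDC1, a mediator of the DNA damage checkpoint, had 18.1, 18.5 and 17.4 CPM untreated and 9.52, 3.88 and 2.67 CPM with Y-320, and its log2 ratio of -1.66 became -2.29 without Y-320 replicate 1. It was the only one of the 117 whose ratio moved by more than 1.5-fold when any library was left out. DMBT1, a scavenger receptor cysteine-rich protein, had 18.5 CPM in untreated 1 against 10.3 and 10.5 CPM in the other untreated libraries, and 6.29, 4.69 and 4.61 CPM with Y-320, the narrowest separation of all 117. Most of the 117 share little sequence with other genes, since 35 had no 31-base word in another gene and 29 had more than 10% of their words there. CCDC85A, TAGLN and CLDN10, at 53.3%, 46.3% and 45.6%, were the most shared besides those already named, so their values are uncertain too. Untreated 1 was the lowest of its group in 64 of the 117 genes. The genes just inside the selection were PSCA, DMBT1 and TCF4 at log2 ratios of -1.257, -1.256 and -1.254. LYPD2, GATA2 and CLEC7A lay just outside at -1.249, -1.246 and -1.241, and GATA2 was an abundant gene among these at 76.7 CPM untreated and 32.0 CPM with Y-320.

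**Figure D3:**
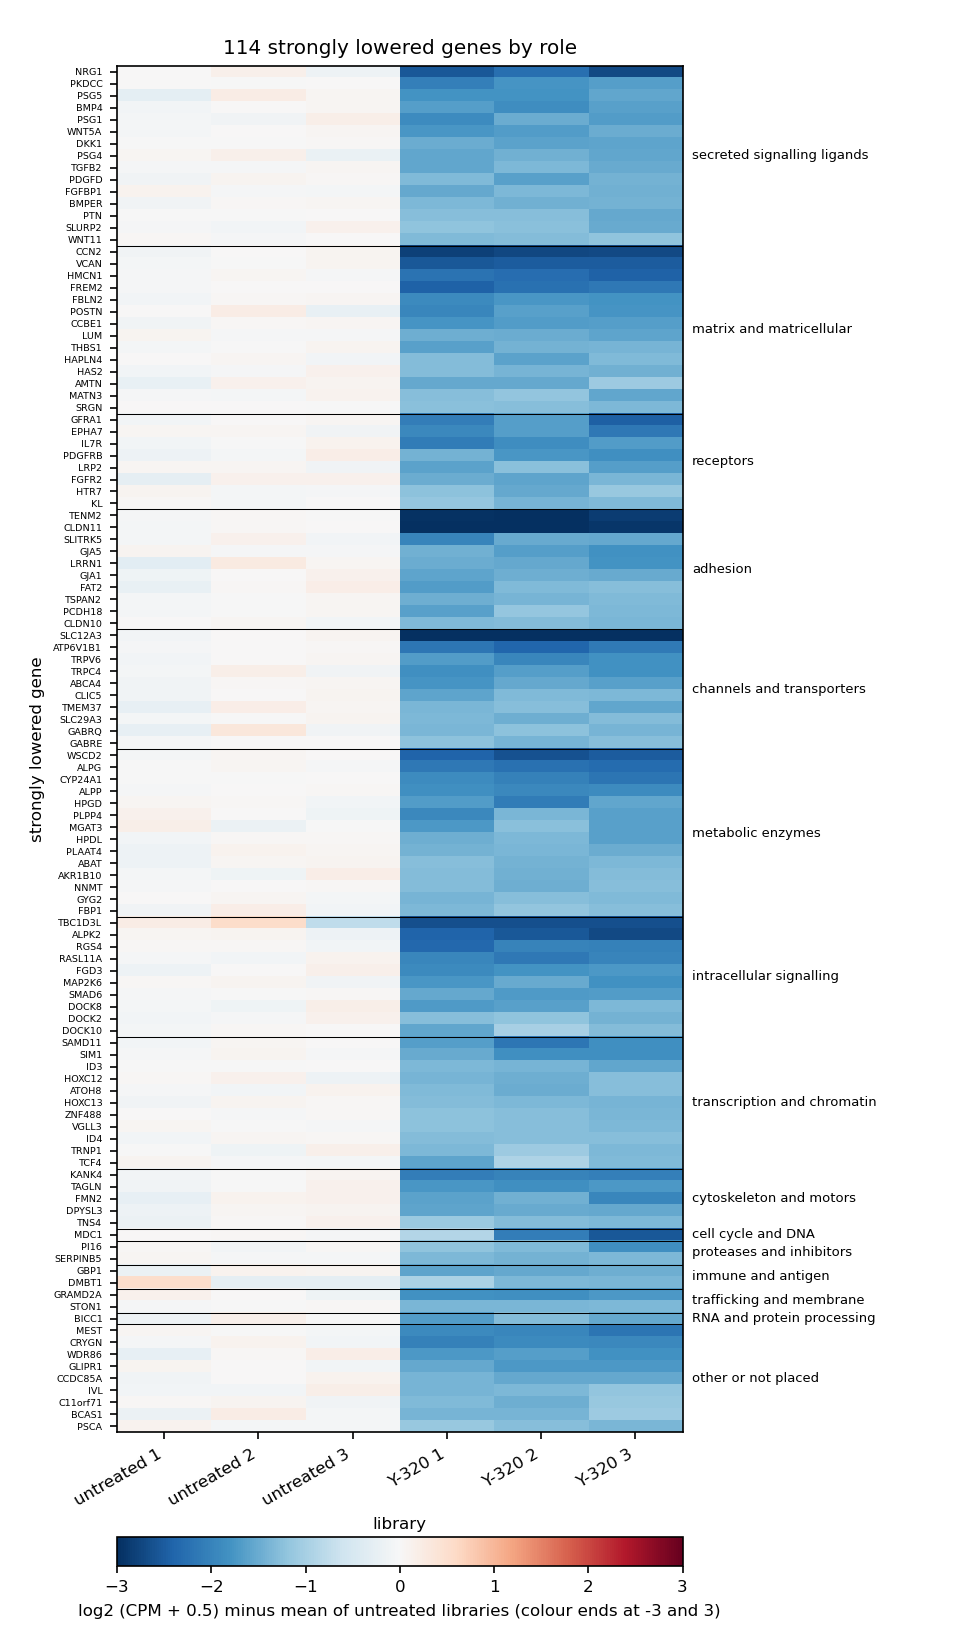
Log2 (CPM + 0.5) minus the mean of the untreated libraries for 114 of the 117 genes (rows, by role, deepest fall first within a role) in the 6 libraries (columns). The Y-320 columns are blue throughout, with MDC1 palest in Y-320 1, and DMBT1 stands out in untreated 1.

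The 117 genes were compared with all 12391 expressed protein-coding genes in features that the selection did not use. Their untreated level, which the selection did use, was lower, at a median of 11.9 against 32.2 CPM. The comparisons here and of promoter motifs were not matched for level. The median GC content of the 117 was 48.6% against 48.4%, their median transcript length 3505 against 3400 bases, and their median gene span 34.8 against 34.3 kb. They had a median of 7 exons against 9. By position, 7 genes (5.98%) lay on chromosome 13, which holds 1.75% of the expressed genes, and 10 (8.55%) on chromosome 10, which holds 3.98%. Several were close neighbours. POSTN and TRPC4 are 33.2 kb apart on chromosome 13, and FREM2 lies 817.3 kb beyond TRPC4. Between TRPC4 and FREM2 lies UFM1, which rose from 82.9 ± 2.77 to 144 ± 3.81 CPM (log2 fold change 0.79, edgeR adjusted p = 3.73e-08). BCAS1 and CYP24A1 are 82.9 kb apart on chromosome 20, and WDR86 and CRYGN are 18.1 kb apart on chromosome 7. These shares and distances are descriptions and were not tested.

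Promoter sequences of 88 of the 117 genes were found in RefSeq (GRCh38.p14, from 250 bases before to 50 bases after the annotated start, the first listed promoter of a gene) and searched on both strands for 6 short motifs. TATAAA, the core of the TATA box, occurred in 13 of them (14.8%), against 5.32% of 10118 promoters of expressed genes and 11.9% of all 27305 promoters. On the gene's own strand and 25 to 35 bases before the start, where a TATA box lies, it occurred in 9 (10.2%), namely CCN2, DKK1, DMBT1, ID4, IL7R, IVL, POSTN, SLC12A3 and TGFB2, against 1.5% of expressed and 2.41% of all promoters. This window was chosen after the matches were seen. TGACTCA, an AP-1 motif, occurred in 6 (6.82%) against 2.97% of expressed and 4.92% of all promoters. GGAATG, the core of TEAD sites, occurred in 11 (12.5%), between the 10.8% of expressed and the 14.05% of all promoters. CCAAT occurred in 33 (37.5%) against 36.5% and 35.7%, and the E-box CACGTG in 4 (4.55%) against 10.1% and 7.44%. TGACGTCA, the full cAMP response element, occurred in none of the 88 promoters against 3.24% of expressed and 1.98% of all promoters. The 6 motifs do not contain each other, and these matches do not show that any factor binds there.

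Windows are shown for 6 of the 9 promoters that hold TATAAA near the start, as examples from matrix, ligand, receptor and transporter genes, with the TATA and TEAD motifs above and, in TGFB2, the E-box in capitals. In IL7R the further capitals are the TATA motif on the opposite strand. THBS1 is shown as a gene without a TATA motif that holds the TEAD motif. The windows lie at chr6:131951383-131951552 (minus strand), chr10:52314171-52314270 (plus strand), chr1:218345226-218345325 (plus strand), chr16:56865097-56865196 (plus strand), chr5:35856781-35856880 (plus strand), chr13:37598779-37598878 (minus strand) and chr15:39580969-39581068 (plus strand), and each ends 11 bases before the annotated start. CCN2 holds 3 TEAD motifs, 169, 104 and 95 bases before the start, the highest number among the 88 promoters.
CCN2: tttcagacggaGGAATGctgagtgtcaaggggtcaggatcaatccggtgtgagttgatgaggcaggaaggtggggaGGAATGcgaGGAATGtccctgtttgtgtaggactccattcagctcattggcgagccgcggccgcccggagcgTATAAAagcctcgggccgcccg
DKK1: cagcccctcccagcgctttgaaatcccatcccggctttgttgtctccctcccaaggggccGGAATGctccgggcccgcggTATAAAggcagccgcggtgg
TGFB2: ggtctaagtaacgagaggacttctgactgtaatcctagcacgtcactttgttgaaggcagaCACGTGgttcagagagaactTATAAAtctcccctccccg
SLC12A3: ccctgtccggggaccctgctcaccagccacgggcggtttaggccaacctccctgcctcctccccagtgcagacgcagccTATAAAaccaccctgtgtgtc
IL7R: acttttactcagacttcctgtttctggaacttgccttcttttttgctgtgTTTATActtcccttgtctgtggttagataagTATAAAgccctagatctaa
POSTN: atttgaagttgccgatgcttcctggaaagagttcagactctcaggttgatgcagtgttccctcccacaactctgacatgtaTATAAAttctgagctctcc
THBS1: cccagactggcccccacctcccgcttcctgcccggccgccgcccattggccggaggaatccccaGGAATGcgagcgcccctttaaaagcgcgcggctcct

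Promoters were also compared for a few neighbouring paralogs, ALPP with ALPG and PSG4 with PSG5, and for no other neighbours. Of the 250 bases before the start, 234 could be set base against base between ALPP and ALPG, and 217 of these (92.7%) were identical. Between PSG4 and PSG5 only 207 could be, and 203 of these (98.1%) were identical. The percentages leave out the bases that fell in gaps. The longest unbroken shared runs were 64 and 89 bases, given in capitals. The windows lie at chr2:232378593-232378686 (plus strand), chr2:232406686-232406779 (plus strand), chr19:43205727-43205845 (minus strand) and chr19:43186598-43186716 (minus strand).
ALPP: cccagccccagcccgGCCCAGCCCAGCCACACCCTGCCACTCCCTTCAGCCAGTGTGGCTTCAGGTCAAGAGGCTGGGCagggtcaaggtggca
ALPG: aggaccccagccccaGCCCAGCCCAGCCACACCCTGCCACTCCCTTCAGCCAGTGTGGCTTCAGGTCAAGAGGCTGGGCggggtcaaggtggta
PSG4: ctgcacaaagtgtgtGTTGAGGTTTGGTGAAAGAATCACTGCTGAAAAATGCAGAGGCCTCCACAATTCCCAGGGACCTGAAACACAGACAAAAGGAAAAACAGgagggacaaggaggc
PSG5: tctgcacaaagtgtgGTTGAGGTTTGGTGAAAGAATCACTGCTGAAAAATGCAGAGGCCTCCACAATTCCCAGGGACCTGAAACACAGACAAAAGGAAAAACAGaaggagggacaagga

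To see whether the genes around these 117 moved, the remaining members of 18 pathway and family lists were read in the whole-table edgeR fit, in which they were free to go either way. Of 947 such genes tested, 379 (40.0%) were lower and 197 (20.8%) higher with Y-320, against 28.0% and 27.7% of all 14159 protein-coding genes tested. The lists were written from general knowledge with earlier results of these data known, so they are not independent evidence of a direction. Nothing in the labels says that the libraries came from separate cultures, so the p-values measure the spread between these samples, which may be technical. Some genes named below were picked after their values were seen, namely CCN1, AMOTL2, ACTB, FN1, FBN1, ID1, ID2, UFM1, SMAD genes other than SMAD6, BMP genes other than BMP4, HOXC10, HOXC11, FGFR1, the claudins, and the serpins other than SERPINB7.

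YAP/TEAD targets held CCN2 and TGFB2, and of 21 other targets 16 were lower and 2 higher. CCN1, the closest relative of CCN2, fell from 152 ± 10.3 to 76.0 ± 2.77 CPM (log2 fold change -1.01, SE 0.05, edgeR adjusted p = 7.97e-08, n = 3 each). ANKRD1, a stretch-responsive repressor, fell from 12.1 ± 0.394 to 4.99 ± 0.378 CPM (log2 fold change -1.29, edgeR adjusted p = 7.83e-07), and AMOTL2 from 88.9 ± 1.92 to 51.0 ± 2.38 CPM. GADD45A, a stress-induced gene that is also on this list, rose instead, from 38.9 ± 0.813 to 102 ± 6.63 CPM (log2 fold change 1.38, edgeR adjusted p = 1.01e-08).

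Targets of the actin-regulated factors SRF and MRTF held TAGLN, and of 26 others 18 were lower and 3 higher. MYL9, the regulatory myosin light chain, fell by 1.24 on the log2 scale and tropomyosin TPM1 by 1.11 (edgeR adjusted p = 2.12e-08 and 5.17e-09). ACTB, β-actin, a gene often used for normalization, fell from 4478 ± 62.9 to 2420 ± 69.3 CPM (log2 fold change -0.90, SE 0.02, edgeR adjusted p = 9.62e-10).

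The matrix glycoprotein and proteoglycan list held 8 of the 117 genes, and of 59 others 31 were lower and 10 higher. Fibronectin FN1 fell from 146 ± 11.9 to 75.9 ± 4.70 CPM (log2 fold change -0.96, edgeR adjusted p = 4.87e-07) and the microfibril protein FBN1 from 103 ± 5.17 to 46.7 ± 4.13 CPM (edgeR adjusted p = 9.52e-08). THBS2, a relative of THBS1, fell by 1.34 on the log2 scale (edgeR adjusted p = 0.000217), and the cross-linking enzyme gene LOXL4 by 1.24 (edgeR adjusted p = 4.57e-06). Other matrix genes rose. LOX, the collagen cross-linking enzyme, rose from 16.2 ± 1.20 to 51.4 ± 2.80 CPM and SMOC1, a BMP antagonist of basement membranes, from 27.9 ± 1.79 to 95.0 ± 9.19 CPM (log2 fold changes 1.65 and 1.76, edgeR adjusted p = 1.21e-08 and 2.31e-08).

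Wnt pathway genes held DKK1, WNT5A and WNT11, and of 52 others 23 were lower and 7 higher. The stem cell receptor LGR6 fell from 66.9 ± 1.59 to 32.3 ± 2.14 CPM (log2 fold change -1.06, edgeR adjusted p = 3.34e-08), and the receptor FZD4 and the Wnt inhibitor APCDD1 fell by 1.10 and 1.31 on the log2 scale (edgeR adjusted p = 0.000291 and 0.00168). WNT4, a low gene, rose from 0.443 ± 0.124 to 2.18 ± 0.568 CPM (edgeR adjusted p = 0.000118).

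BMP signalling had no list of its own, and 5 of its genes, BMP4, BMPER, SMAD6, ID3 and ID4, had been selected. Their relatives went both ways. ID1 fell from 518 ± 9.10 to 259 ± 17.6 CPM (log2 fold change -1.01, SE 0.04, edgeR adjusted p = 2.26e-08) and ID2 from 22.0 ± 0.795 to 10.6 ± 0.411 CPM (log2 fold change -1.06, edgeR adjusted p = 2.06e-07). The other inhibitory SMAD, SMAD7, fell by 0.31 on the log2 scale (edgeR adjusted p = 0.00697, but 0.0512 by DESeq2), and the ligand gene BMP6 rose from 0.645 to 1.58 CPM (edgeR adjusted p = 0.00154). Of 7 SMAD genes outside the set, SMAD1, SMAD7 and SMAD9 were lower, SMAD3 and SMAD4 higher, and SMAD2 and SMAD5 did not pass the edgeR test. SMAD1, which carries BMP signals, fell by 0.57 and SMAD4, the partner shared by BMP and TGF-β signals, rose by 0.34 on the log2 scale (edgeR adjusted p = 4.02e-05 and 0.000408). Of 6 BMP genes by symbol, BMP1, BMP3 and BMP7 were lower and BMP6, BMP8B and BMP2K higher, although BMP1 encodes a protease and BMP2K a kinase. BMP8B rose by 0.66 on the log2 scale (edgeR adjusted p = 1.19e-05). By DESeq2 the calls of SMAD3, SMAD9, BMP3 and BMP7 were lost (adjusted p = 0.0572, 0.0797, 0.215 and 0.0527). That of BMP3 was also lost with a replicate block (edgeR adjusted p = 0.0566) and without any one library (edgeR adjusted p = 0.0603 to 0.0913), and that of SMAD9 without untreated 3 (edgeR adjusted p = 0.0579). The developmental transcription factor list, which holds ID3, ID4, HOXC12 and HOXC13, had 44 of 138 others lower and 35 higher. KLF4, an epithelial differentiation factor, rose from 17.4 ± 0.842 to 59.1 ± 4.23 CPM (log2 fold change 1.75, edgeR adjusted p = 9.02e-09). Within the HOXC cluster, HOXC11 fell by 0.72 on the log2 scale (edgeR adjusted p = 2.76e-05), while HOXC10, at 36.1 CPM untreated and 34.8 CPM with Y-320, did not pass the test (log2 fold change -0.06, SE 0.05, edgeR adjusted p = 0.295).

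Growth factor receptor families held genes of both directions. The FGF, PDGF, MET and AXL list held FGFR2, FGFBP1, PDGFRB, PDGFD, GFRA1 and PTN, and of 37 others 14 were lower and 7 higher. FGFR3 fell from 6.86 ± 0.698 to 2.76 ± 0.168 CPM and the neurotrophin BDNF from 16.1 ± 0.816 to 6.53 ± 0.256 CPM (log2 fold changes -1.33 and -1.31, edgeR adjusted p = 8.29e-06 and 2.23e-07), while PDGFRL rose by 1.62 on the log2 scale (edgeR adjusted p = 4.96e-07). FGFR1 had 18.8 CPM untreated and 20.6 CPM with Y-320 and did not pass the test (log2 fold change 0.12, SE 0.05, edgeR adjusted p = 0.0794, or 0.0458 without untreated replicate 3). Of 61 axon guidance genes besides EPHA7, 31 were lower and 13 higher, among them EPHA4, which fell from 33.6 ± 0.823 to 15.8 ± 1.10 CPM (edgeR adjusted p = 8.43e-08), and ROBO1, which fell by 1.00 on the log2 scale (edgeR adjusted p = 2.52e-05). Insulin-like growth factor system genes, which hold none of the 117, had 5 of 19 lower and 7 higher.

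Among junction genes the claudin family split. Whereas CLDN11 and CLDN10 were in the selected set, CLDN3 rose from 16.3 to 44.5 CPM (log2 fold change 1.43, SE 0.06, edgeR adjusted p = 4.24e-08) and CLDN7 from 226 to 338 CPM (log2 fold change 0.57, edgeR adjusted p = 3.14e-08), and CLDN1, CLDN4, CLDN12 and CLDN15 also rose, CLDN15 without passing in DESeq2 (adjusted p = 0.106). No claudin outside the selected set passed the test in the lower direction. In the serpin B clade, SERPINB1, SERPINB6, SERPINB7, SERPINB8 and SERPINB9 rose, by 0.20 to 1.21 on the log2 scale, while SERPINB5 was in the lowered set. Cadherins and immunoglobulin adhesion molecules, with PCDH18, had 26 of 76 others lower and 7 higher, and CDH5 fell from 13.5 ± 0.993 to 5.55 ± 0.0544 CPM (edgeR adjusted p = 5.91e-07). Coagulation, complement and serpin genes, which hold 2 of the 117 genes, SERPINB5 among them, had 15 of 45 others lower and 17 higher. CFI, a protease of the complement system, fell from 24.4 ± 1.30 to 10.1 ± 0.799 CPM (edgeR adjusted p = 1.88e-07).

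Metabolic and hormone-response lists were read next. Retinoid pathway genes, with PLAAT4, had 16 of 25 others lower and 4 higher, led by RARRES1, which fell from 747 ± 26.2 to 346 ± 5.64 CPM (log2 fold change -1.12, edgeR adjusted p = 9.08e-10). AHR and xenobiotic metabolism genes, with AKR1B10, had 25 of 42 others lower and 7 higher, and CYP1A1, the classical AHR target, rose from 8.57 ± 0.161 to 25.1 ± 1.62 CPM (edgeR adjusted p = 3.50e-08). PPAR and fatty acid oxidation genes had 19 of 33 lower and 5 higher. Luminal and estrogen-responsive genes, with BCAS1, had 14 of 23 others lower and 5 higher, among them AGR2, which fell from 54.9 ± 2.04 to 24.2 ± 2.96 CPM (edgeR adjusted p = 2.56e-07). Histone genes had 17 of 41 lower and 2 higher and proliferation markers 14 of 30 lower and 4 higher. Ion channels, with TRPC4 and TRPV6, had 26 of 118 others lower and 30 higher, and G protein-coupled receptors, with HTR7, 36 of 113 lower and 32 higher, shares near those of all genes. These last lists were filled by symbol prefix and hold a few genes of other kinds, such as the protease gene HTRA1.

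**Figure D4:**
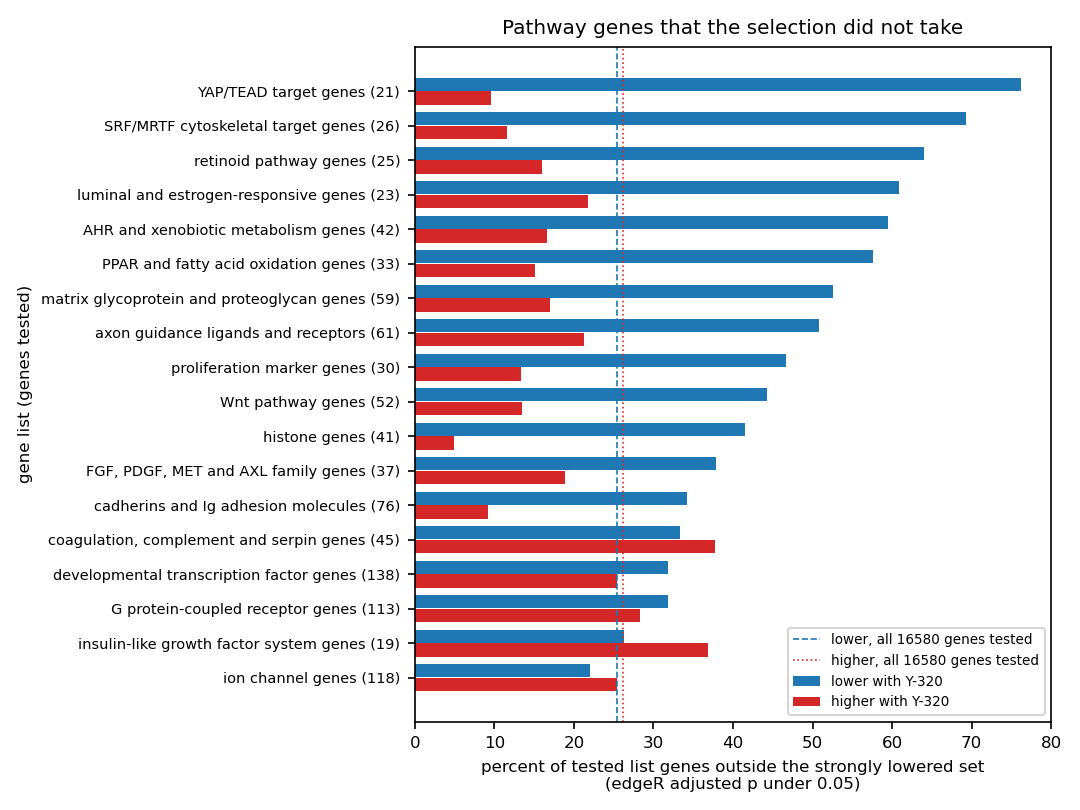
Percent of tested list genes outside the 117 that edgeR called lower (blue) or higher (red) with Y-320, per list, with the number tested in brackets. Dashed and dotted lines mark 25.4% lower and 26.2% higher over all 16580 genes of every kind. The lists hold protein-coding genes only, and over all 14159 of those tested the shares were 28.0% and 27.7%. YAP/TEAD and SRF/MRTF targets have the highest shares lower, and ion channels the lowest.

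Genes beside the 117 on the chromosome were examined in the same fit. Of 214 nearest protein-coding neighbours outside the set, taken at any distance, 105 (49.1%) were lower and 35 (16.4%) higher. The furthest, SPRY2, lay 7330 kb from SLITRK5. Of the 93 within 50 kb, 51 (54.8%) were lower and 10 (10.8%) higher. Over all protein-coding genes tested these shares were 28.0% and 27.7%. Neither this comparison nor those of list genes and relatives was matched for level. Some neighbours share sequence with a gene of the set, such as LYNX1-SLURP2 with SLURP2 and VAX2 with ATP6V1B1, and were counted all the same. DIS3L2, 34.4 kb from ALPP, fell from 64.9 ± 1.93 to 35.1 ± 1.74 CPM (log2 fold change -0.90, edgeR adjusted p = 6.50e-08). ENPP1, 53.0 kb from CCN2, fell from 12.2 ± 0.469 to 7.05 ± 0.427 CPM (log2 fold change -0.81, edgeR adjusted p = 1.21e-05). STARD13, 37.0 kb from KL, fell from 98.1 ± 3.22 to 42.9 ± 1.24 CPM (log2 fold change -1.21, edgeR adjusted p = 4.39e-09). Others went the opposite way. HERPUD1, a stress-induced gene 16.3 kb from SLC12A3, rose from 85.3 ± 2.33 to 211 ± 4.96 CPM (log2 fold change 1.29, edgeR adjusted p = 9.08e-10), and CSF1R, 0.5 kb from PDGFRB, rose from 5.05 ± 0.556 to 12 ± 1.21 CPM (edgeR adjusted p = 6.56e-06). These 5 neighbours were picked after their values were seen. The changes largest in size were in CCDC190 and SPRR1A, both at low levels. CCDC190, beside RGS4, was counted 30, 15 and 21 times in the untreated libraries but 1, 3 and 1 times in the Y-320 libraries, a ratio of 13.45 in CPM (exact 95% interval 5.48 to 42.8, counting error only, edgeR adjusted p = 0.000134). SPRR1A, 72.2 kb from IVL, was counted 3, 2 and 0 times in the untreated libraries but 21.7, 12.6 and 17.9 times in the Y-320 libraries, a ratio of 10.2 (exact 95% interval 4.10 to 32.7, edgeR adjusted p = 0.000756). PSG8, 100.8 kb from PSG1, and RBP3, 7.6 kb from ZNF488, followed, with log2 fold changes of -2.34 and -1.70 (edgeR adjusted p = 0.00144 and 0.00125). Where genes overlap, reads may have been divided between them.

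Relatives by symbol were less one-sided. Of 262 tested genes that share a symbol stem with 70 of the 117, 89 (34.0%) were lower and 71 (27.1%) higher. EPHA5, a relative of EPHA7, and FAT3, of FAT2, fell by 2.23 and 1.85 on the log2 scale (edgeR adjusted p = 0.00315 and 9.16e-05). Both were under the 2 CPM minimum of the selection, EPHA5 at 1.07 ± 0.347 against 0.224 ± 0.160 CPM and FAT3 at 1.82 ± 0.217 against 0.509 ± 0.0487 CPM. C11orf86, matched only by the stem C11orf, rose from 1.77 ± 0.487 to 12.6 ± 2.96 CPM (edgeR adjusted p = 1.87e-06). HAS3, the other hyaluronan synthase tested, rose from 1.34 ± 0.0862 to 5.64 ± 0.274 CPM (log2 fold change 2.05, edgeR adjusted p = 7.23e-07) while HAS2 was in the lowered set. The antisense gene DOCK8-AS1 had 0.639 CPM untreated and 0.527 CPM with Y-320 and did not pass the test (log2 fold change -0.29, SE 0.33, edgeR adjusted p = 0.489).

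**Figure D5:**
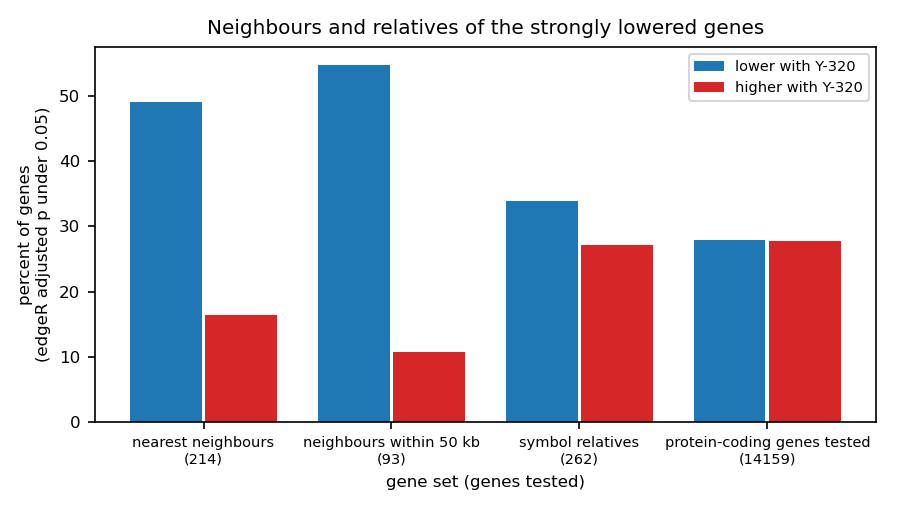
Percent of genes that edgeR called lower (blue) or higher (red) among the nearest neighbours of the 117 genes, neighbours within 50 kb, genes of the same symbol stem and all protein-coding genes tested. Lower calls were 49.1%, 54.8%, 34.0% and 28.0% in that order.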

How the data were processed

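Total RNA was sequenced in 6 libraries on an Illumina NextSeq 500. The authors deposited estimated counts per Ensembl gene, not normalized, made per the labels with kallisto 0.46.1 on hg38. kallisto divides reads between transcripts that share sequence, so paralogs and overlapping genes are uncertain. Whether counting used strand is not given in the sources used here. Positions, lengths and GC content came from GENCODE 44 on hg38, which named 35390 of 40295 identifiers, and promoters came from RefSeq.

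CPM values were computed from library totals for the selection. Counts were rounded and tested with edgeR 4.0.16 in R 4.3.3 (filterByExpr with a minimum of 10 counts and 15 in total, TMM, quasi-likelihood test without a block, Benjamini-Hochberg over 16580 genes, threshold 0.05), which was tested on simulated data. DESeq2 1.42.0 was an alternative. Python 3.11.15 with pandas 2.3.3, numpy 2.4.6, scipy 1.17.1, biopython 1.88 and matplotlib 3.10.9 made the other tables and plots. Samples were grouped by the treatment in their labels, and the labels give no batch.

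The genes, role groups and gene lists were chosen with earlier results of these data known. The naming rule takes the 20 largest falls, the 15 highest levels, up to 6 genes per role, list members, the genes nearest the threshold and the least even ones. Outside the set it takes up to 4 genes per list, 4 neighbours and 6 relatives with the largest changes. Not every list gene or relative it takes is named. Genes of a role beyond 6 were named to account for the set, and the values of 3 of the 117 genes are not reported here, although counts, sums and medians include them. Alternatives covered pseudocounts, minimum levels, thresholds, scalings, filters, unrounded counts, DESeq2, a replicate block and each library left out.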

Additional observations from a re-analysis of the deposited data

How the results depend on the processing

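The number of strongly lowered genes moved most with its own limits, to 199 at a log2 threshold of -1 and 61 at -1.5. It was 87 to 138 with pseudocounts of 1 and 0.1 CPM, 91 to 127 with untreated minimums of 5 and 1 CPM, 121 with TMM-scaled libraries and 114 to 124 with any library left out, of which 109 to 114 were among the 117. Ranked by the edgeR or DESeq2 log2 fold change, 146 genes passed, all 117 included. Named genes of every biotype gave 119, an alternative chosen after seeing the data. Genes called lower numbered 4210 with edgeR, 3278 with DESeq2 and 3748 to 3925 with any library left out, and genes called higher 4336, 3405 and 3917 to 4047.

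Samples with the same replicate number did not deviate together (correlations -0.002, 0.015 and 0.002). The labels give them no link beyond that number, and correlations over all genes tested cannot exclude one. With a replicate block, 4159 genes were lower and 4285 higher, and by its log2 fold change 146 genes passed the selection threshold. No direction reversed under any alternative run. Depth limits the genes near the floor, such as TBC1D3L, EPHA7 and SLC12A3 with Y-320.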
